A study of Rattus norvegicus with 11 samples.

Results

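The 43 ribosomal protein genes measured on a rat expression array were compared between the epithelial cell types of the lung alveolus. They were taken as the probe sets annotated to exactly 1 gene whose symbol begins with Rpl, Rps or Rplp and a number, without the S6 kinases, which gave 62 of 7006 such probe sets and 43 of 4736 genes. Where a gene had several probe sets, the brightest by its mean across the 11 arrays was used. By their symbols, 25 genes encode proteins of the large subunit and 10 of the small subunit, and Rplp0 encodes the base of the P-stalk. The remaining genes are 5 ribosomal protein-like genes (Rpl3l, Rpl19l4, Rpl36al1, Rplp1l3 and Rps27l) and 2 pseudogenes (Rps2-ps1 and Rps4x-ps9).

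Total RNA had been hybridised to 11 Affymetrix arrays. By the sample descriptions, 4 held RNA of freshly isolated type I (TI) cells, the flat cells that cover most of the alveolar surface. Another 4 held RNA of freshly isolated type II (TII) cells, the cuboidal cells that make surfactant, and 3 held TII cells kept in culture to day 7. The fresh cells are titled day 0, and all arrays share the same cDNA kit and biotin labelling. No strain, age or sex is given in the sources used here, nor whether replicate arrays were from different animals, so p-values cover the spread between these arrays and nothing more. The source field reads TI for all 11 arrays, so groups follow the descriptions.

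Ribosomal proteins are the structural partners of ribosomal RNA. The large subunit forms the peptide bond, the small subunit reads the messenger, and the P-stalk recruits the elongation factors. Cells make the proteins in matched amounts, and their messengers typically start with a C inside a run of pyrimidines, the 5′ terminal oligopyrimidine (TOP) tract, through which growth signalling by mTOR and LARP1 sets their translation. Because their messengers are abundant, several members serve as reference genes in expression studies.

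The start of each gene is shown first because the TOP tract is the regulatory sequence that these genes share. Windows of 30 bases, 15 before and 15 from the annotated RefSeq start onward, were read 5′ to 3′ on the strand of the gene in rat build GRCr8, and 36 of the 43 genes were found there. Capitals mark the longest run of C and T. The following were chosen to show long runs and, for 5 genes with differences described below, the absence of one.
Rpl13a, chr1:104748899-104748928, minus strand: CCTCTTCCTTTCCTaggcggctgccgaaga
Rpl19, chr10:83519049-83519078, plus strand: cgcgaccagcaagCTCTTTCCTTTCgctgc
Rpl31, chr9:49143096-49143125, plus strand: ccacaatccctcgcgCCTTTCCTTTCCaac
Rplp0, chr12:46718376-46718405, minus strand: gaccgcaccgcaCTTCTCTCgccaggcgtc
Rps23, chr2:23814502-23814531, plus strand: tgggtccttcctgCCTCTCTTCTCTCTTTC
Rps24, chr16:96502-96531, plus strand: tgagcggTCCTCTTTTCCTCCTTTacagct
Rpl3, chr7:113507976-113508005, minus strand: ccagcgcctgctcgaTCTCTatcggcggcg
Rpl18, chr1:105325255-105325284, plus strand: TCTggacctggtctagcaggaggcgccatc
Rpl36, chr9:1533765-1533794, plus strand: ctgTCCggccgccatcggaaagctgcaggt
Rps16, chr1:92770643-92770672, plus strand: cctggaaaatcggtcggggtggCCCCaagc
Rps27l, chr8:76443643-76443672, plus strand: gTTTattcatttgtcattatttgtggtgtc

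A run of 7 or more pyrimidines lay in the window of 23 of 36 members (63.9%) and of 22 of 32 subunit and stalk genes (68.8%), against 17.8% of 27457 RefSeq promoters. On the other strand the shares were 5.56% of members and 19.9% of all promoters. The motif CTTTCC, picked after the windows had been read, was found on the strand of the gene in 9 of 36 members and in 357 of 27457 promoters, and on the other strand in 1 member and 350 promoters; it can lie inside a run of 7. A shorter run says only that these letters are not in this window, whose place rests on the annotated start.

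The ribosomal protein genes sat near the top of the signal range. On the log2 scale of the deposited values, 37 of the 43 genes were among the brightest 947 of all 4736 genes. Among the 157 probe sets with a mean above 10, 48 (30.6%) carried a ribosomal protein symbol, those shared between several genes included. The brightest member was Rps29, with means of 11.64, 11.98 and 12.18 in fresh TI, fresh TII and cultured TII cells. The dimmest were Rplp1l3 at 2.66, 2.65 and 2.55 and Rpl5 at 4.30, 4.39 and 4.16, levels at which a probe set may carry no signal of its gene. Signals of different probe sets are not compared as amounts of RNA.

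**Figure D1:**
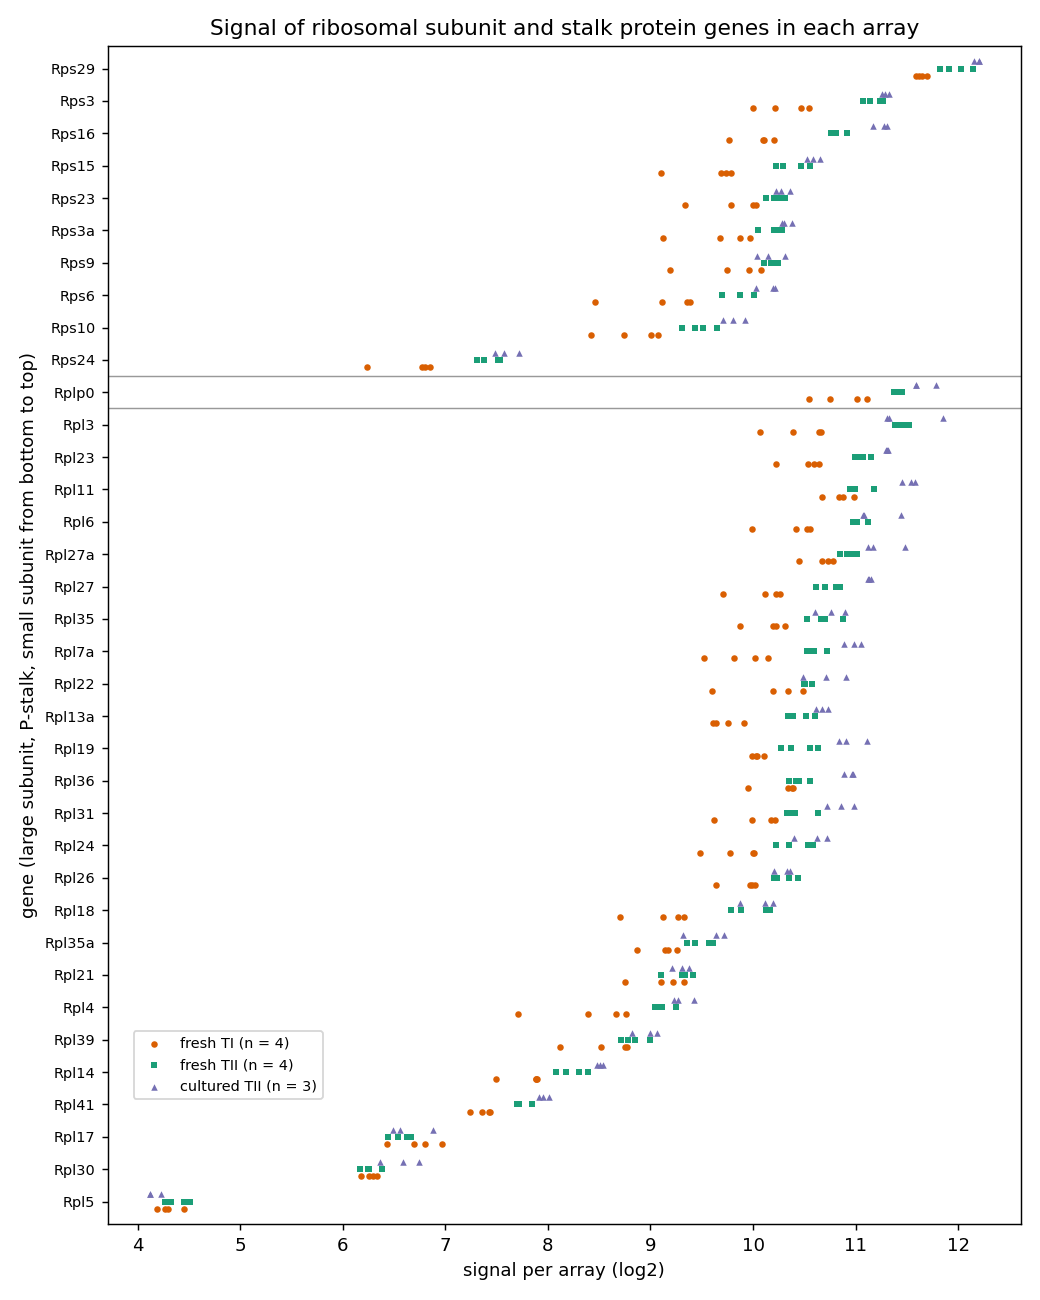
Signal (log2) of the 36 subunit and stalk genes in every array, by gene, with circles for 4 fresh TI, squares for 4 fresh TII and triangles for 3 cultured TII arrays. Most genes sit above 9, and for 29 of the 36 all fresh TI arrays lie to the left of all fresh TII arrays.

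The arrays themselves differed in ways that bear on bright genes. The median over the 43 members was 9.75, 9.97, 9.91 and 9.19 in the 4 fresh TI arrays, 10.28, 10.23, 10.21 and 10.13 in the fresh TII arrays, and 10.22, 10.27 and 10.36 in the cultured TII arrays. For this median every fresh TI array lay below every other array, and fresh TI array 4 stood apart from its group. The standard deviation of all probe sets moved the same way, from 1.77 to 1.85 in fresh TI and 1.92 to 1.95 in fresh TII to 1.95 to 1.97 in cultured TII arrays, while the median over all genes stayed between 5.74 and 5.78. The values after rescaling the arrays are therefore given beside the counts. The SD of a member among arrays of a group had a median of 0.25 in fresh TI, 0.11 in fresh TII and 0.10 in cultured TII cells, against 0.14, 0.09 and 0.10 over all genes.

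**Figure D2:**
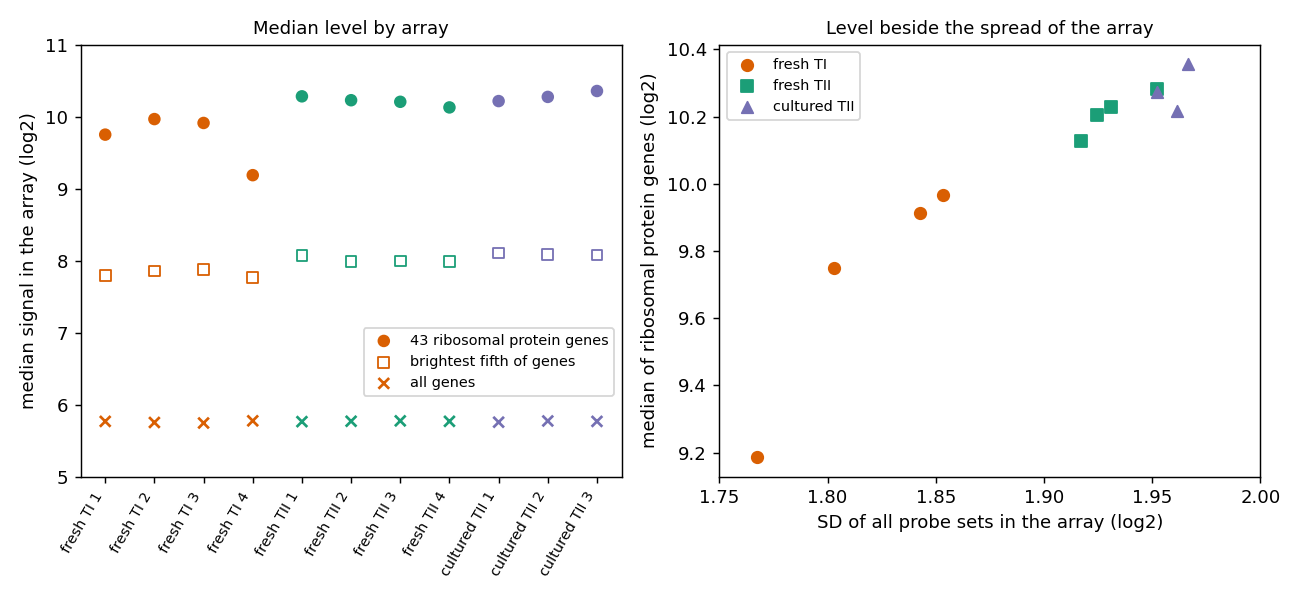
Left, the median signal (log2) in each array of the 43 ribosomal protein genes (filled circles), the brightest 947 genes (open squares) and all genes (crosses); right, the ribosomal protein median (log2) of an array beside the SD of all its probe sets (log2). Fresh TI array 4 has both the lowest median, 9.19, and the lowest SD, 1.77.

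The labelled cell types were checked against their markers. All 8 measured type I markers were higher in fresh TI than in fresh TII cells, and all 10 measured type II markers were lower. In culture 6 of the 8 type I markers were higher than in fresh TII cells and 0 lower. Of the 10 type II markers 9 were lower and 1 higher, where 14.0% of all genes were lower and 20.5% higher. The type II marker mean was 11.06 in fresh TII, 9.18 in fresh TI and 7.44 in cultured TII cells, so cultured TII names the source of the cells. Surfactant protein C messenger was not absent from fresh TI arrays (Sftpc mean 11.90, against 13.09 in fresh TII and 5.12 in cultured TII cells), so RNA of type II cells in these isolates cannot be told apart from expression in TI cells. Within the fresh TI group the mean over the 10 type II markers was 9.08, 9.54, 9.54 and 8.58 in arrays 1 to 4, lowest in array 4, which also had the lowest ribosomal protein median, and the mean over the 8 type I markers was 9.10, 9.16, 9.39 and 9.32. Among all genes 33.0% were higher and 21.2% lower in fresh TI than in fresh TII cells, the shares to set beside the marker counts of that comparison. Of 14 fibroblast and smooth muscle markers, 9 were higher in fresh TI than in fresh TII cells. The mean over that list ran from 6.40 to 6.73 in fresh TI, 5.59 to 5.86 in fresh TII and, in cultured TII arrays, 6.26 to 6.74. The mean over 7 airway epithelium markers was apart in every comparison, at 5.63 to 5.79 in fresh TI, 6.52 to 6.62 in fresh TII and 5.395 to 5.56 in cultured TII arrays. Of these, 3 were lower and 4 higher in fresh TI than in fresh TII cells, among the lower ones Scgb1a1 (-3.31 ± 0.13) and Cyp2f4 (-4.07 ± 0.09) of club cells. The mean over 7 markers of dividing cells, of which 2 were lower and 1 higher, was also lower in fresh TI (5.97 to 6.01) than in fresh TII (6.23 to 6.38) and cultured TII arrays (6.09 to 6.49). Over 13 leukocyte markers the means overlapped between all groups, at 5.41 to 5.72, 5.49 to 5.63 and 5.41 to 6.11, and over 10 endothelial markers at 5.497 to 5.82, 5.56 to 5.67 and 5.63 to 5.66. Over 4 red blood cell markers they ran from 7.10 to 7.49, from 7.46 to 8.34 and, in culture, from 6.32 to 6.44. The part of these cells in the ribosomal protein differences was not tested, and in such bulk samples fewer cells of a type and less RNA per cell cannot be told apart.

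In fresh TI cells most ribosomal protein genes had a lower signal than in fresh TII cells. With limma fitted to all 11 arrays and Benjamini-Hochberg adjustment over 8740 probe sets, 31 of 43 genes were lower at an adjusted p under 0.05, where 21.2% of all genes were. 1 gene, Rpl19l4, was higher, where 33.0% of all genes were, and 11 passed in neither direction. The median difference was -0.45 (log2), 73.1% of the fresh TII signal, against a median of 0.11 over all genes. The brightest 947 genes are a closer setting than all genes: there 38.9% were lower and 26.0% higher, and the median was -0.09, while 31 of the 37 members among them were lower, with a median of -0.54. Yet their median signal was 7.76 to 7.875 in fresh TI arrays, against 9.19 to 9.97 for the members. In fresh TII arrays it was 7.99 to 8.07 against 10.13 to 10.28, so the 947 genes are not matched to the members in brightness. All 4 fresh TI arrays lay below all 4 fresh TII arrays for 31 members, and for 20.2% of all genes, and above them for 1 member, and for 30.2% of all genes.

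All 10 small subunit genes fell, with a median difference of -0.70, and 17 of 25 large subunit genes fell, with a median of -0.42. The difference between the subunits was not tested. The changes were small in fold: of the 36 subunit and stalk genes 28 were lower and 0 higher, and 1, Rpl3, differed by at least 2-fold. Among all 4736 genes 237 were called at least 2-fold lower and 95 at least 2-fold higher. The genes with a start-site run of 7 or more pyrimidines had a median difference of -0.49 (22 genes) and those without had -0.63 (10 genes). These medians were not tested against each other.

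Rplp0, the P-stalk base and a common reference gene (Entrez gene 64205), gave 10.75, 11.11, 11.02 and 10.55 in the fresh TI arrays and 11.38, 11.38, 11.46 and 11.39 in the fresh TII arrays. The groups did not overlap, and the difference was -0.54 ± 0.11 (log2, SE; limma adjusted p = 0.00135). For its stalk partner Rplp2 the probe set is annotated to 3 genes, all with ribosomal protein symbols; it read 10.74, 10.79, 10.81 and 10.58 in fresh TI and 11.05, 11.03, 10.97 and 10.98 in fresh TII arrays, a difference of -0.28 ± 0.07. No probe set is named for Rplp1 by its own symbol, and the dim Rplp1l3 differed by 0.01 ± 0.11.

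The lowest differences belonged to genes of both subunits. Rpl3 (Entrez gene 300079), which lines the peptidyl transferase centre, read 10.39, 10.66, 10.64 and 10.07 in fresh TI arrays and 11.38, 11.47, 11.52 and 11.45 in fresh TII arrays. All fresh TI arrays were lower, and at -1.02 ± 0.14 (limma adjusted p = 8.18e-05) fresh TI cells had about 1 part in 2.02 of the fresh TII signal.

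Rpl18, another large subunit protein, read 9.13, 9.33, 9.27 and 8.71 against 10.13, 9.78, 10.16 and 9.89, a difference of -0.88 ± 0.14. Rps3, at the messenger entry of the small subunit, read 10.21, 10.54, 10.46 and 9.995 against 11.23, 11.14, 11.26 and 11.07, a difference of -0.87 ± 0.11. Neither gene's groups overlapped. The window of Rpl18 printed above has no run longer than 3, and its messenger was among the 5 with the lowest difference. A link between run and difference was not tested.

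Rps15, a protein of the small subunit head, had a difference of -0.81 ± 0.13 from 9.74, 9.69, 9.79 and 9.10 in fresh TI and 10.55, 10.23, 10.47 and 10.29 in fresh TII arrays. Its other 2 probe sets were called in opposite directions, at 0.38 and -0.93, so its direction depends on the probe set. Rps16, also in the small subunit head and a common reference gene, read 10.10, 10.11, 10.20 and 9.77 against 10.91, 10.78, 10.81 and 10.76, and differed by -0.77 ± 0.09 (limma adjusted p = 1.74e-05) with no overlap.

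Rps6, the small subunit protein that the S6 kinases phosphorylate, read 9.11, 9.39, 9.36 and 8.46 in fresh TI arrays and 10.01, 9.70, 9.87 and 9.70 in fresh TII arrays. The groups did not overlap, and the difference was -0.74 ± 0.17 (limma adjusted p = 0.0031). Its SD in fresh TI cells was 0.43, with array 4 the lowest.

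The other genes in common use as references were lower in fresh TI cells as well. Rpl13a, of the large subunit, read 9.76, 9.63, 9.91 and 9.61 against 10.52, 10.34, 10.60 and 10.39, a difference of -0.73 ± 0.08. Rpl4 read 8.39, 8.76, 8.67 and 7.71 against 9.07, 9.25, 9.04 and 9.12, a difference of -0.74 ± 0.18, in which array 4 again lay far below the others. Neither overlapped between the groups.

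Rpl27, a large subunit protein, read 10.12, 10.26, 10.23 and 9.70 in fresh TI and 10.85, 10.70, 10.81 and 10.61 in fresh TII arrays, a difference of -0.67 ± 0.11. Rpl19, a large subunit protein that reaches across to the small subunit, read 10.04, 10.11, 10.03 and 9.99 against 10.55, 10.27, 10.63 and 10.37, a difference of -0.42 ± 0.09. The fresh TI arrays were all lower for both, and for Rpl19 array 4 was close to the others.

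Rps23, at the decoding centre, read 9.79, 10.03, 9.996 and 9.34 against 10.31, 10.27, 10.21 and 10.13, a difference of -0.44 ± 0.13 (limma adjusted p = 0.0119). Rps29, of the small subunit head, read 11.62, 11.64, 11.70 and 11.59 against 11.91, 11.82, 12.15 and 12.03, a difference of -0.34 ± 0.07. The groups of both were apart, and Rps29 had the smallest difference among the reference genes with a probe set of their own. Rpl32 and Rps18, measured only by probe sets of 3 genes each, differed by -0.30 ± 0.10 and -0.46 ± 0.09.

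Some members did not pass the test. Rpl11, which binds 5S ribosomal RNA, read 10.84, 10.88, 10.99 and 10.67 against 10.95, 10.97, 11.18 and 10.99, so that the groups overlapped, and the difference was -0.18 ± 0.08 (limma adjusted p = 0.0787). Its dimmer probe set was called lower at -0.27 (limma adjusted p = 0.0315), with no overlap. Rpl36 read 10.38, 10.34, 10.39 and 9.95 against 10.55, 10.42, 10.45 and 10.35, and differed by -0.18 ± 0.10. Rpl39 and Rpl22 differed by -0.30 ± 0.13 and -0.37 ± 0.16.

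The probe sets that served several genes with a ribosomal protein symbol were measured apart from the rule and can be set beside it. Of 40, 32 were lower in fresh TI cells and 0 higher, with a median of -0.50, where 20.4% of all probe sets were lower and 34.3% higher. Their probes may share sequence with the members, so they are not independent of them. Rpsa and Rack1, small subunit proteins with other symbols, differed by -0.71 ± 0.10 and -0.91 ± 0.13.

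**Figure D3:**
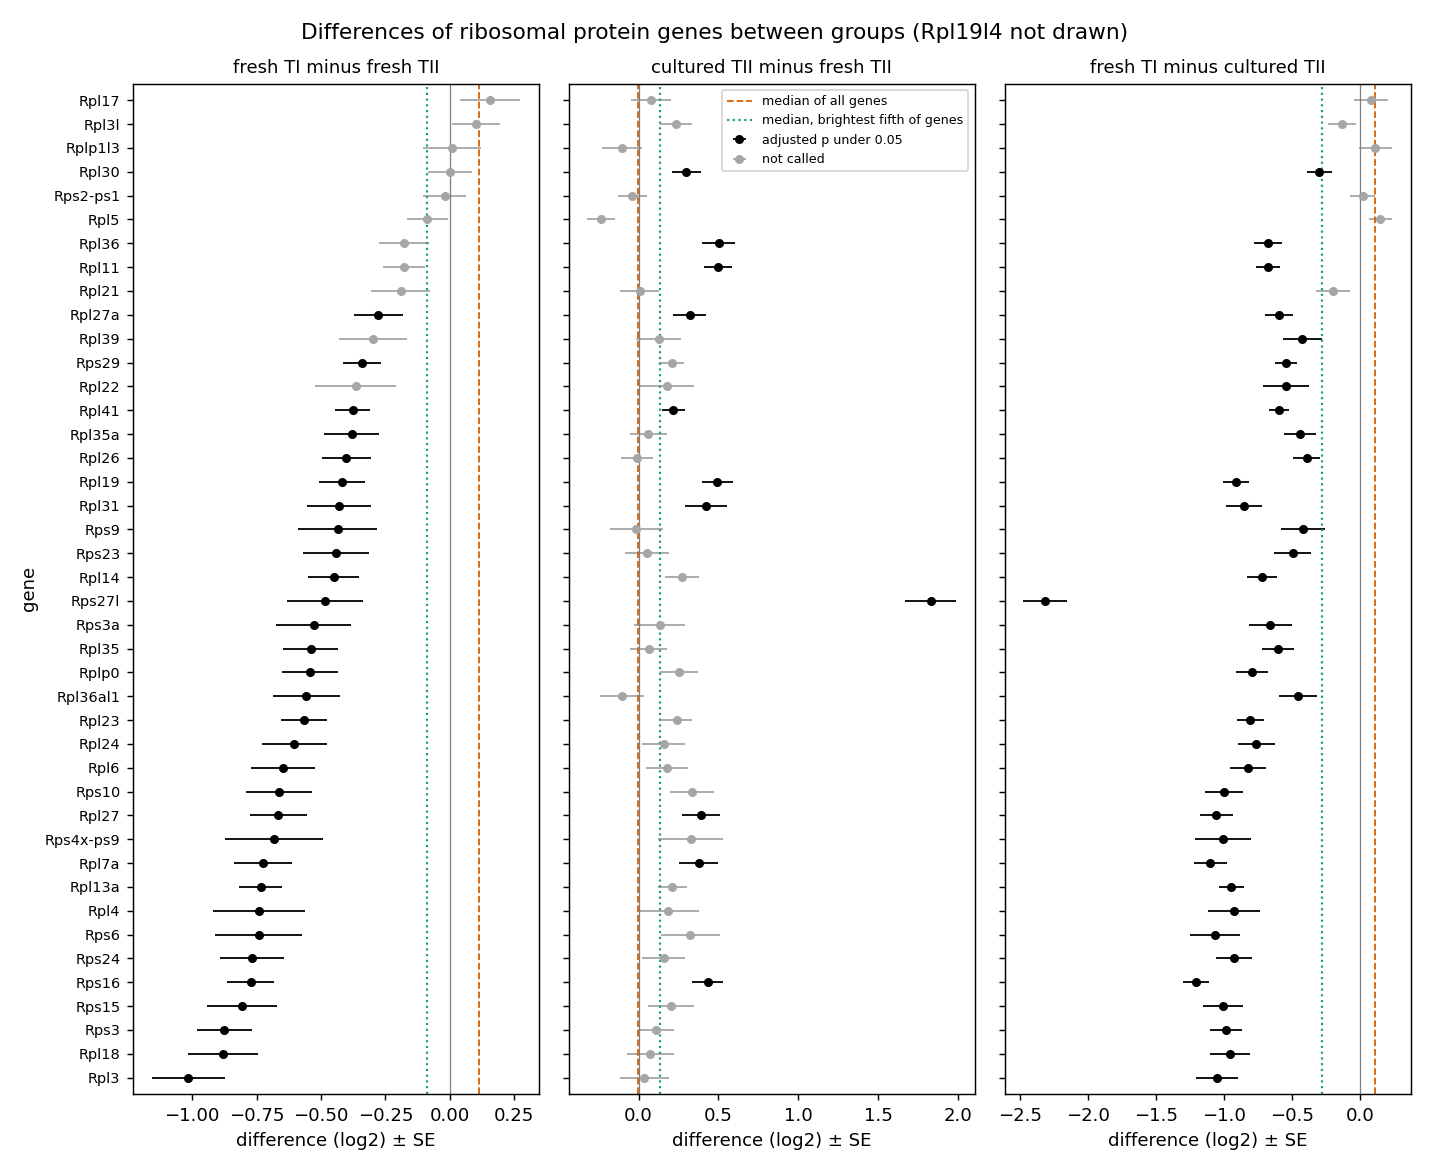
Differences (log2, with the standard error of the limma fit) of 42 of the 43 genes in the 3 comparisons, in black where the adjusted p was under 0.05 and grey elsewhere, with the medians of all genes (dashed) and of the brightest 947 (dotted). In the left panel most genes lie left of the dotted line at -0.09; Rpl19l4, at 3.39, is outside the range drawn.

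How far the arrays are rescaled decides how many of these calls hold. Centring the arrays on their medians gave 32 genes lower, with a median of -0.49. Matching the median and SD of the arrays left 22 genes lower, with a median of -0.29, quantile normalization left 18, with a median of -0.22, and cyclic loess left 19, with a median of -0.19. Under these 4 scalings, in that order, the median of the brightest 947 genes was -0.13, 0.02, 0.10 and 0.03. The shares of all genes called lower were 23.5%, 22.7%, 20.7% and 24.1%. Without fresh TI array 4, 30 genes were lower and the median was -0.35. Among the reference genes, Rps29 changed sign under matched SD (0.0038) and cyclic loess (0.13).

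**Figure D4:**
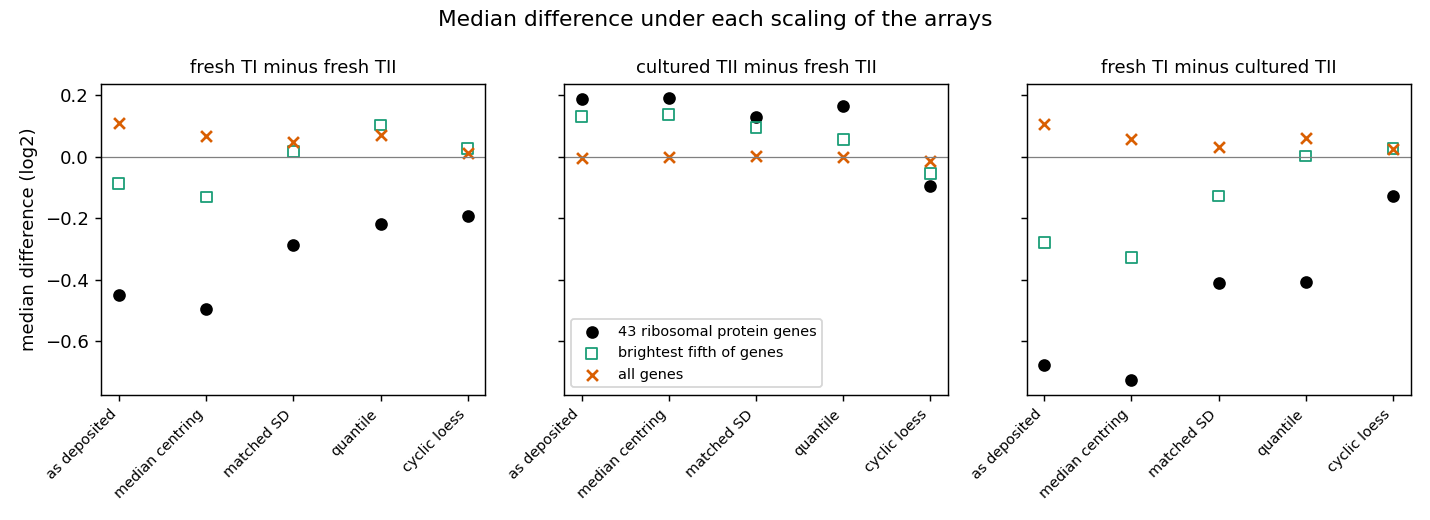
Median difference (log2) of the 43 ribosomal protein genes (circles), the brightest 947 genes (squares) and all genes (crosses) under the deposited values and 4 rescalings of the arrays, in the 3 comparisons. The ribosomal protein median of fresh TI minus fresh TII is -0.45 as deposited and runs from -0.49 after median centring to -0.19 after cyclic loess, and that of cultured minus fresh TII turns from 0.19 to -0.09.

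In culture, on the deposited scale, a minority of ribosomal protein genes rose and most did not pass the test; after cyclic loess the direction of the median turned. By day 7, 11 of 43 genes were higher than in fresh TII cells, where 20.5% of all genes were higher, 1 was lower (Rpl19l4), where 14.0% were, and 31 were not called. The median difference was 0.19, against -0.01 over all genes and 0.13 among the brightest 947, where 38.1% were higher and 20.9% lower. The share of members called higher, 25.6%, is thus near the share of all genes and below that of the brightest 947. Those 947 were mostly dimmer than the members, with medians of 8.08 to 8.105 against 10.22 to 10.36 in the cultured arrays. A share among genes of the same brightness as the members was not computed. All cultured arrays lay above all fresh TII arrays for 18 members, and for 24.2% of all genes, and below them for 2 members, and for 20.2% of all genes.

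The count moved with the arrays used. It was 6 without fresh TII array 2, 6 without fresh TII array 4, 7 without cultured TII array 2, 7 without cultured TII array 3 and 16 without fresh TI array 4, which enters only through the shared estimate of the spread. After cyclic loess 2 genes were higher, where 18.6% of all genes were, and 7 lower, where 16.4% were. The count lower is near that last share, and the median was -0.09. Of the genes called higher on the deposited scale, 9 are of the large subunit and 1, Rps16, of the small subunit.

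Rpl36 and Rpl11 had the highest differences after the like gene Rps27l. Rpl36 read 10.97, 10.98 and 10.89 in cultured arrays against 10.55, 10.42, 10.45 and 10.35 in fresh TII arrays, a difference of 0.50 ± 0.10 (limma adjusted p = 0.00199). Rpl11 read 11.58, 11.54 and 11.45 against 10.95, 10.97, 11.18 and 10.99, a difference of 0.50 ± 0.09 (limma adjusted p = 0.000542). No cultured array overlapped the fresh arrays for either.

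Rpl19 rose by 0.49 ± 0.10, from the fresh TII values above to 10.91, 10.84 and 11.11. Rps16 rose by 0.43 ± 0.10, to 11.30, 11.28 and 11.17. Both moved in opposite directions from fresh TII cells in TI cells and in culture, and both comparisons share the fresh TII arrays. Rpl31, a large subunit protein at the exit tunnel, rose by 0.42 ± 0.13 from 10.63, 10.41, 10.36 and 10.33 to 10.86, 10.99 and 10.72, and Rpl27 by 0.39 ± 0.12 to 11.12, 11.15 and 11.13.

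Rpl7a rose by 0.38 ± 0.12, from 10.59, 10.56, 10.72 and 10.53 to 10.89, 10.99 and 11.05, and Rpl27a by 0.32 ± 0.10, from 10.97, 10.85, 11.01 and 10.91 to 11.48, 11.17 and 11.13. Rpl41, the smallest protein of the large subunit, rose by 0.22 ± 0.07 from 7.85, 7.70, 7.72 and 7.71 to 7.96, 8.01 and 7.92. Arrays did not overlap for any of these, but the calls of Rpl27, Rpl27a, Rpl31, Rpl41 and Rpl7a were each lost when some single arrays were left out. Rpl30, with a difference of 0.30 ± 0.09, was called while its arrays overlapped.

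Of the 5 genes lowest in fresh TI against fresh TII cells, all but Rps16 were not called in culture. Rpl3 gave 11.33, 11.31 and 11.85 in culture, a difference from fresh TII cells of 0.04 ± 0.15, and Rpl18 gave 10.20, 9.88 and 10.12, a difference of 0.07 ± 0.15. Rps3 at 11.33, 11.28 and 11.26 and Rps15 at 10.53, 10.58 and 10.66 differed by 0.11 ± 0.11 and 0.20 ± 0.15. None of these passed the test, and the arrays of all of them overlapped.

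Rplp0 read 11.58, 11.59 and 11.78 in culture, above every fresh TII array, yet its difference of 0.25 ± 0.12 did not pass (limma adjusted p = 0.129). Rps6 read 10.22, 10.19 and 10.03, a difference of 0.32 ± 0.18 that did not pass. The cultured arrays of Rps6 also lay above every fresh TII array.

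Rpl13a read 10.73, 10.61 and 10.68 in culture, a difference of 0.21 ± 0.09, and Rpl4 read 9.23, 9.43 and 9.26, a difference of 0.19 ± 0.19. Rps29 read 12.20, 12.15 and 12.20, a difference of 0.21 ± 0.08, and Rps23 read 10.22, 10.27 and 10.36, a difference of 0.06 ± 0.14. None of these passed on the probe set used. The dimmer probe set of Rpl13a was called higher in culture (0.68, limma adjusted p = 0.0022), with no overlap of arrays. The shared probe sets of Rpl32 and Rps18 were higher in culture by 0.38 ± 0.10 and 0.29 ± 0.10, and that of Rplp2 by 0.34 ± 0.07.

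Of the 3 RNA quality controls, those of beta-actin and GAPDH were lower in culture than in fresh TII arrays, with no overlap. The 3′ minus 5′ difference of the beta-actin controls was 0.32 to 0.43 in fresh TII, 0.21 to 0.43 in fresh TI and -0.33 to -0.08 in cultured TII arrays, and that of the GAPDH controls 0.47 to 0.57, 0.41 to 0.69 and 0.30 to 0.45. That of hexokinase was 1.04 to 1.28 in fresh TII, 1.27 to 1.49 in fresh TI and 1.13 to 1.21 in cultured TII arrays, so that the cultured values lay within those of fresh TII and the fresh TI values lay mostly above them. Their part in the ribosomal protein values was not tested.

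On the deposited scale the ribosomal protein genes differed most between fresh TI and cultured TII cells. Of 43 genes, 36 were lower in fresh TI than in cultured TII cells, where 25.8% of all genes were, 1 was higher, where 34.2% were, and 6 were not called. The median difference was -0.68, or 62.5% of the cultured signal, against 0.11 over all genes and -0.28 among the brightest 947, where 50.8% were lower and 24.8% higher. All fresh TI arrays lay below all cultured arrays for 35 members and for 25.0% of all genes, and above them for 1 member and for 32.7% of all genes. At least 2-fold lower by the test were 8 of 43 members, 320 of 4736 genes and 174 of the brightest 947. The counts called lower at any fold were 22 of 25 for the large subunit and 10 of 10 for the small subunit. After cyclic loess 17 genes were lower and 3 higher, where 27.0% of all genes were lower and 24.6% higher. The median was -0.13, against 19 lower and a median of -0.19 between fresh TI and fresh TII cells, so this order turned.

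The lowest differences after Rps27l were those of Rps16 at -1.21 ± 0.10 (limma adjusted p = 6.75e-07), Rpl7a at -1.10 ± 0.12, Rps6 at -1.07 ± 0.18 and Rpl27 at -1.06 ± 0.12. For Rpl7a the fresh TI arrays read 9.82, 10.14, 10.02 and 9.53, all below the fresh TII arrays as well (-0.73 ± 0.11). Rpl31 differed by -0.86 ± 0.13 and Rpl27a by -0.60 ± 0.10.

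Across the 3 groups on the deposited scale, the mean rose from fresh TI to fresh TII to cultured TII cells for 31 of the 36 subunit and stalk genes. The order comes from group means, and for most of these genes the upper neighbours, fresh and cultured TII cells, did not differ by the test. Shares of all genes were not computed for this order, nor for the calls across comparisons that follow. In single comparisons 21.2% of all genes were lower in fresh TI than in fresh TII cells, and 25.8% lower than in cultured TII cells. In all, 31 members were lower in fresh TI cells than in both other groups, and 9 were called in all 3 comparisons (Rpl7a, Rpl19, Rpl19l4, Rpl27, Rpl27a, Rpl31, Rpl41, Rps16 and Rps27l). Among these, fresh TI arrays of Rpl31 read 9.99, 10.21, 10.18 and 9.62, those of Rpl27a 10.67, 10.73, 10.78 and 10.45, and those of Rpl41 7.43, 7.36, 7.44 and 7.24. Their differences from fresh TII cells were -0.43 ± 0.12, -0.28 ± 0.10 and -0.38 ± 0.07. The call of Rpl27a there was lost without some single arrays, and without fresh TI array 4 its difference was -0.21.

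As a measure of how steady a reference gene was here, the ratio of its highest to its lowest group mean was 1.41 for Rps23, 1.46 for Rps29, 1.74 for Rplp0, 1.88 for Rpl19, 1.9 for Rpl4, 1.93 for Rpl13a, 2.08 for Rpl27 and 2.31 for Rps16. Their dimmer probe sets gave 1.24 for Rps29, 2.73 for Rpl13a and 1.58 for Rpl27, so the order depends on the probe set. The shared probe sets of Rpl32 and Rps18 gave 1.595 and 1.69. In each of these the lowest mean was that of fresh TI cells on the deposited scale.

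**Figure D5:**
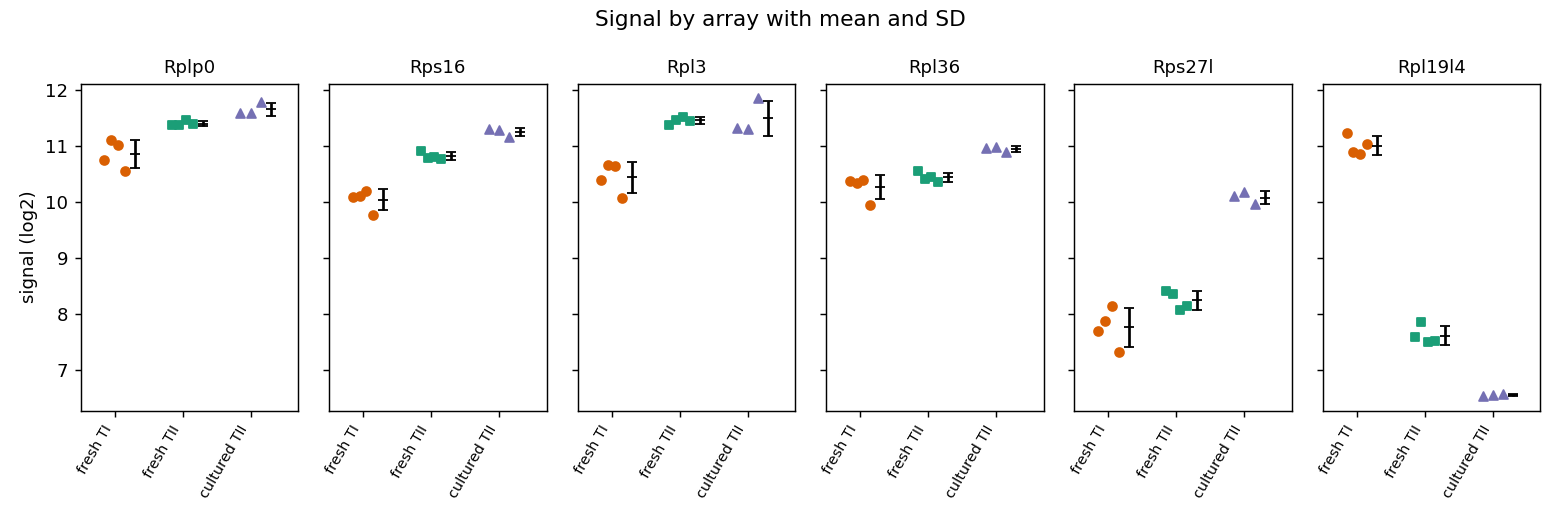
Signal (log2) of 6 genes in every array, with the mean and SD of each group as a bar beside the points (n = 4, 4 and 3 arrays). Rplp0 and Rps16 rise from left to right, Rpl3 is low in fresh TI cells with a mean of 10.44, Rpl36 is highest in culture, Rps27l stands at 10.08 in culture, and Rpl19l4 lies between 10.86 and 11.23 in fresh TI cells.

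The 5 members with the smallest range of group means were Rps2-ps1, Rplp1l3, Rpl17, Rpl21 and Rpl5, and most were dim. Rps2-ps1, a pseudogene, read 5.59, 5.39, 5.55 and 5.73 in fresh TI, 5.58, 5.48, 5.74 and 5.54 in fresh TII and 5.52, 5.55 and 5.57 in cultured TII arrays. Rplp1l3 read 2.72, 2.41, 2.53 and 2.96, then 2.50, 2.56, 2.79 and 2.74, then 2.61, 2.43 and 2.59. The groups of both overlapped in every comparison.

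The probe set of Rpl17, a protein of the exit tunnel, read 6.69, 6.97, 6.80 and 6.43 in fresh TI, 6.54, 6.62, 6.44 and 6.66 in fresh TII and 6.56, 6.49 and 6.88 in cultured TII arrays, with overlap throughout. The 2 brighter probe sets with an Rpl17 symbol, each annotated to 4 genes, were lower in fresh TI than in fresh TII cells by the test (-0.88 ± 0.16 and -0.77 ± 0.14) and not called in culture. Rpl5, the partner of Rpl11 in binding 5S ribosomal RNA, read 4.27, 4.30, 4.46 and 4.19, then 4.46, 4.51, 4.27 and 4.33, then 4.23, 4.12 and 4.12. A brighter probe set annotated to 2 genes, both with ribosomal protein symbols of the Rpl5 kind, had means of 10.10 in fresh TI and 11.02 in fresh TII cells, a difference of -0.92, so for both genes the small range belongs to the dimmer probe set.

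Rpl21 read 9.10, 9.22, 9.33 and 8.75 in fresh TI, 9.41, 9.34, 9.31 and 9.10 in fresh TII and 9.21, 9.37 and 9.31 in cultured TII arrays, which overlapped. Its probe sets disagreed: next to -0.19 for the brightest, fresh TI minus fresh TII was -0.61 for the next and 0.52 and 0.32 for the 2 dimmer ones, all 3 called. Among the 16 members with several probe sets, those called pointed in 1 direction for 13 genes, in both for Rpl21 and Rps15, and 1 gene had none called.

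Of the 5 like genes, 2 were lower and 1 higher in fresh TI than in fresh TII cells. Rps27l (Entrez gene 681429), which shares most of its sequence with Rps27, read 7.70, 7.89, 8.15 and 7.33 in fresh TI, 8.42, 8.36, 8.07 and 8.15 in fresh TII and 10.11, 10.18 and 9.96 in cultured TII arrays. The cultured arrays stood far above all others, by 1.83 ± 0.16 over fresh TII cells (3.56-fold; limma adjusted p = 1.1e-06) and by 2.31 ± 0.16 over fresh TI cells. Fresh TI cells were lower than fresh TII cells by the test at -0.48 ± 0.15, although their arrays overlapped.

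Rpl19l4 (Entrez gene 100364265) went the other way from every other called member. It read 11.23, 10.89, 10.86 and 11.04 in fresh TI, 7.59, 7.87, 7.50 and 7.52 in fresh TII and 6.55, 6.55 and 6.57 in cultured TII arrays. No groups overlapped, and it was 10.4-fold higher in fresh TI than in fresh TII cells and differed by -1.06 ± 0.11 in culture, where it was lower. The probe set is of the kind whose probes match several transcripts, and Rpl19 itself had the opposite direction. Both genes are named from the probe annotation, and whether the signal came from them, from their parent genes or from other transcripts was not tested.

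Rpl36al1 was lower in fresh TI cells by the test (-0.56 ± 0.13) and the pseudogene Rps4x-ps9 likewise (-0.68 ± 0.19), while Rpl3l, a muscle paralogue of Rpl3, stayed between 6.07 and 6.66 in all arrays and passed no test. Probe sets of a pseudogene or like gene may read the parent messenger, which cannot be told apart here.

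Other parts of the translation machinery were counted from lists written from textbook knowledge, to be read against the shares and medians of all genes given for each comparison. Of 7 measured elongation and release factors, 3 were lower and 0 higher in fresh TI than in fresh TII cells, with a median of -0.21. Eef2, which moves the ribosome along the messenger, differed by -0.70 ± 0.09, with its other probe sets at -0.86, -0.98 and, not called, -0.18. Eef1g, a subunit of the exchange factor for Eef1a, differed by -0.59 ± 0.12, and the nascent chain binding protein Naca by -0.60 ± 0.16. In culture 2 were higher and 1 lower (2 and 3 after cyclic loess): Eef1g by 0.63 ± 0.13, the ribosome rescue factor Pelo by 0.80 ± 0.11, and Eef2k, the kinase that inhibits Eef2, by -0.76 ± 0.11.

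Initiation factors and their regulators had calls in both directions in fresh TI cells and more higher than lower in culture. Of 21 measured, 5 were higher and 7 lower in fresh TI than in fresh TII cells (median -0.08), and 12 were higher and 1 lower in culture (median 0.30). In fresh TI cells 2 were higher and 8 lower after median centring, and 3 higher and 7 lower after cyclic loess. In culture 10 were higher after quantile normalization, and 9 higher and 2 lower after cyclic loess. The helicase Eif4a2 differed in fresh TI cells by -1.44 ± 0.14 and Paip1, which binds the poly(A)-binding protein, by -1.35 ± 0.17. In culture Eif2s1, a subunit of the factor that brings the initiator tRNA, was higher by 0.94 ± 0.10, the cap-binding protein homologue Eif4e2 by 0.91 ± 0.09 and Eif3m by 0.79 ± 0.22, while Paip1 was lower (-0.79 ± 0.18). The cap-binding protein Eif4e was lower in fresh TI cells (-0.53 ± 0.11) and higher in culture (0.55 ± 0.12). The counts also include inhibitors of initiation. Of these, the Eif2 kinases Eif2ak1 (0.31) and Eif2ak2 (0.32) were among the genes higher in fresh TI cells. The kinase Eif2ak3 (0.71) and the Eif4e-binding inhibitor Eif4ebp1 (0.57) were among those higher in culture. The dimmer probe sets of Eif4ebp1 were called higher by more, at 2.93 and 1.95, and the dimmer one of Eif2ak3 was not called (0.09).

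Genes listed for ribosome building and the nucleolus also had calls in 1 direction per comparison. Of 15, 7 were lower in fresh TI cells and 0 higher (median -0.14), and 7 were higher and 0 lower in culture (median 0.19). Under the 4 rescalings 8 to 9 were lower and 0 to 1 higher in fresh TI cells, and 7 were higher in culture under each. Nucleolin (Ncl) differed in fresh TI cells by -1.32 ± 0.13, the nucleolar helicase Ddx21 by -0.91 ± 0.11 and the box C/D protein Nop58 by -0.62 ± 0.07. Gnl3 (nucleostemin) differed by -0.70 ± 0.08, but its other probe sets were called at 0.25 and -1.61. In culture Nap1l1, a histone chaperone counted on this list rather than a ribosome builder, was higher by 1.47 ± 0.10. A Nap1l1 probe set nearly as bright was not called (0.34). Higher too were Nop58 by 0.85 ± 0.07, Ddx21 by 0.68 ± 0.12 and the RNA polymerase subunit Polr1d by 0.64 ± 0.17.

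Mitochondrial ribosomal proteins, which belong to a separate ribosome, had 5 of 14 lower and 1 higher in fresh TI cells (median -0.10). In culture 3 were higher and 0 lower (median 0.14). Among all genes the calls in fresh TI cells were 21.2% lower and 33.0% higher, and in culture 20.5% higher. The 3 of 14 in culture is near that last share. Rescaling the arrays in the 4 ways kept 5 to 6 at a lower call in fresh TI cells and 3 at a higher call in culture. Mrps6 differed in fresh TI cells by -1.33 ± 0.12, and Mrpl13 was higher in culture by 0.88 ± 0.13, a rise that its dimmer probe set at 3.89 did not show. Of 6 cytosolic tRNA synthetase genes, 1 was lower in fresh TI cells (Tars1, -0.43 ± 0.10). In culture 4 were higher, among them Tars1 by 1.25 ± 0.10 and Aimp2 by 0.81 ± 0.08. Each of the 4 rescalings kept 4 higher in culture, with 1 to 2 lower in fresh TI cells. After cyclic loess 1 was lower in culture.

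Of 9 measured genes of S6 kinase, mTOR and growth signalling, 5 were lower in fresh TI cells and 0 higher (median -0.26). In culture 1 was higher and 3 lower (median -0.09). Over the 4 rescalings, fresh TI cells kept 5 to 6 lower and 0 higher, and culture 1 higher and 3 to 4 lower. Myc, a transcription factor that drives ribosome production, differed by -2.54 ± 0.09 in fresh TI cells and -1.11 ± 0.10 in culture, and was called lower in both. Rheb, the activator of mTOR, differed by -0.54 ± 0.15 in fresh TI cells, with its dimmer probe set called at 0.25. Akt1 was higher in culture by 0.79 ± 0.11, and Pdpk1, the kinase upstream of it, was lower (-0.40 ± 0.10). The counts mix activators with inhibitors, since Tsc2, an inhibitor of mTOR, was among the genes lower in fresh TI cells (-0.26). The S6 kinase gene Rps6kb1 was called neither in fresh TI cells (-0.0055) nor in culture (0.24). Its dimmer probe set was called lower in fresh TI cells (-0.39) and higher in culture (0.41).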

How the data were processed

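Total RNA was measured on 11 Affymetrix rat arrays (4 fresh TI, 4 fresh TII, 3 cultured TII). The deposited values are 1 log2 signal per probe set and array, as the authors processed them; the summary, background correction and normalization are not given in the sources used here, and base 2 was inferred from the range of the values. Of 8799 probe sets, 59 controls were kept apart and 8740 tested, with no filter on dim signal. limma 3.58.1 in R 4.3.3 (lmFit, eBayes, two-sided) fitted 3 group means to all 11 arrays; p-values were adjusted by Benjamini-Hochberg over the 8740 probe sets and called under 0.05. The fit was tested on simulated data. Gene names and Entrez identifiers follow the platform annotation; promoter windows are from RefSeq (GRCr8). Array number and brightness limit the precision.

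The members and gene lists were chosen with earlier results of these data known. Values in every array were given, per comparison, for the called members with the 5 highest and 5 lowest differences, the P-stalk genes, Rps6, common reference genes, members called in all 3 comparisons, the 5 with the smallest range, and members whose probe sets disagreed. From every other list, up to 4 called genes were eligible, those with the widest differences. Some inhibitors in these lists and Rps6kb1 were named besides. Alternatives were 4 rescalings, a filter on dim probe sets, other eBayes settings, array weights, fits on 2 groups, the replicate number as a block, a threshold of 0.01, other choices of probe set or members, and leaving out each array. Replicate numbers were not used for pairing: deviations from group means correlated between -0.20 and 0.28 for 10 pairs of arrays of the same number and between -0.27 and 0.23 for 30 pairs of different number.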

Additional observations from a re-analysis of the deposited data

Results flagged for a closer look

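Of 86 sets of 4 arrays (43 genes in fresh TI and in fresh TII cells), 7 held an array whose gap to its nearest neighbour passed Dixon's 95% critical value, which chance passes in about 1 in 20 sets. In 5 of them fresh TI array 4 was the low one. Rpl14 read 7.49 there against 7.88 to 7.89 in the other fresh TI arrays. Rpl26 read 9.64 against 9.97 to 10.02, and Rpl36 read 9.95 against 10.34 to 10.39. Rps15 read 9.10 against 9.69 to 9.79, and Rps24 read 6.24 against 6.77 to 6.85. The same array had the lowest median over the members, 9.19, and the lowest SD of all probe sets, 1.77. In fresh TII cells, Rpl22 read 10.6 in array 2 against 10.50 to 10.51 in the others, and Rpl41 read 7.85 in array 1 against 7.70 to 7.72. What sets these arrays apart was not tested.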

How the results depend on the processing

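Scaling moved the results most. Under quantile normalization 18 genes were lower in fresh TI than in fresh TII cells. Cyclic loess gave 19 lower and 2 higher there, 2 higher and 7 lower in cultured against fresh TII cells with a median of -0.095, and 17 lower and 3 higher in fresh TI against cultured TII cells with a median of -0.13. Among all genes cyclic loess called 24.1% lower and 21.3% higher, 16.4% lower and 18.6% higher, and 27.0% lower and 24.6% higher in these comparisons. Array weights gave 18 higher and 2 lower in culture, where 25.1% and 19.4% of all genes were. They gave 2 higher in fresh TI against cultured TII cells, where 30.9% of all genes were. An intensity trend, fits on 2 groups, or the mean of a gene's probe sets gave 2 lower in culture. An adjusted p under 0.01 left 5 higher in culture. Without the like genes the counts for Rpl19l4's directions became 0, 0 and 0. Adding genes of several-gene probe sets, chosen after seeing the data, gave 19 higher in culture.

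Leaving out each array gave 29 to 34 lower and 1 higher throughout in fresh TI against fresh TII cells (median -0.52 to -0.35), 6 to 16 higher and 1 to 2 lower in culture (median 0.14 to 0.21), and 32 to 36 lower and 1 higher throughout in fresh TI against cultured TII cells (median -0.76 to -0.62). The replicate number as a block moved the median in culture to 0.11 and took no count past 1.5 times.

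Among the named genes, 16 values changed sign. After cyclic loess, fresh TI minus fresh TII was 0.11 for Rpl27a, 0.17 for Rpl36 and 0.13 for Rps29; cultured minus fresh TII was -0.24 for Rpl21, -0.0284 for Rpl27a, -0.32 for Rpl3, -0.24 for Rps23 and -0.24 for Rps3; and fresh TI minus cultured TII was 0.079 for Rpl11, 0.29 for Rpl21, 0.13 for Rpl27a, 0.12 for Rps23 and 0.32 for Rps29. Rpl27a in fresh TI minus fresh TII was 0.063 after quantile normalization and 0.0042 with matched SD, and Rps29 was 0.0038 with matched SD. The cause was not tested. Signals near the bottom of the range limit Rpl5 and Rplp1l3.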
